A study of Mus musculus with 8 samples.

Results

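Prl2c3, Prl2c2 and Prl2c5 are the mouse proliferin genes considered here, 3 of the 41730 rows of a gene count table from spheroids of 4T1 cells, a transplantable mouse mammary carcinoma line. They were picked by name after earlier results had shown them to differ between the groups, so their values are given as a description and without a test. The 4T1 cells carried a lentivirus for a hairpin RNA against Tlr7 (shTlr7, 4 libraries) or for a scrambled hairpin RNA (shCtrl, 4 libraries). Both groups were grown as hanging drops in DMEM with serum, and total RNA was sequenced in bulk. Whether each library had its own culture is not stated in the labels. Errors and p-values therefore describe how far these samples differ from each other, and that spread may be technical. In bulk RNA, fewer cells that express a gene and less RNA per cell cannot be told apart.

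Proliferins are secreted glycoproteins of the prolactin and growth hormone family, which is much enlarged in rodents. In mice they are made in large amounts by trophoblast giant cells of the placenta, where they promote the growth of maternal blood vessels, and they were first found as transcripts that serum induces in cultured fibroblasts. Proliferin binds the cation-independent mannose phosphate receptor, encoded by Igf2r, and its promoter became a textbook case of a site where the glucocorticoid receptor and AP-1 factors meet.

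The 3 genes lie together on chromosome 13 (GRCm38.p6, RefSeq), with Prl2c3 at 12790816 to 12800093, Prl2c2 at 12996120 to 13005393 and Prl2c5 at 13182703 to 13191930. They span 401 kb, and the other 23 genes of the family in the count table start 13.9 Mb further along the same chromosome. Their transcripts are close to identical, which limits how well reads can be assigned to 1 of them. In the coding sequence, with positions counted from 1 at the A of the start codon, Prl2c3 and Prl2c2 differ at 3 of 675 bases (C14T, A200C and G319T, Prl2c3 base first). Prl2c5 has 96.9% identity to Prl2c3 over 669 aligned coding bases. A stretch of 60 coding bases of Prl2c3, from position 306 to 365, is shown. It holds 1 of the 3 bases that separate Prl2c3 from Prl2c2. Among stretches of that length without alignment gaps that do so, it has the most positions at which the 3 genes differ. It is therefore not typical of the coding sequence. Capitals mark the 7 positions at which the 3 genes are not all the same (GENCODE M21 transcripts).
Prl2c3: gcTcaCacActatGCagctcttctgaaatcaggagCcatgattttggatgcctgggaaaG
Prl2c2: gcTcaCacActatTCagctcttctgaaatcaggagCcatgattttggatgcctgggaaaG
Prl2c5: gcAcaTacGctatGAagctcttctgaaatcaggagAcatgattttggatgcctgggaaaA

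Only part of each transcript can single out its gene. Of all windows of 100 bases in the Prl2c3 transcript, 37.7% occur in no transcript of another gene of the annotation, against 33.6% for Prl2c2 and 91.3% for Prl2c5. With windows of 50 bases the shares are 21.4% for Prl2c3, 10.5% for Prl2c2 and 61.4% for Prl2c5. The rest of the Prl2c3 windows are shared mainly with Prl2c2, which holds 472 of the 758 windows of 100 bases. Gm7040, a neighbouring locus that GENCODE lists as a pseudogene and RefSeq as protein-coding, holds 129 of them. Gm7040 and Prl2c1, a further relative, had 0 counts in all 8 libraries. The sources used here do not state how reads that match several genes were counted. The split of counts among the 3 genes is therefore uncertain, and their sum is given beside them. If such reads were left out of the counts, the sum is too low as well.

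**Figure D1:**
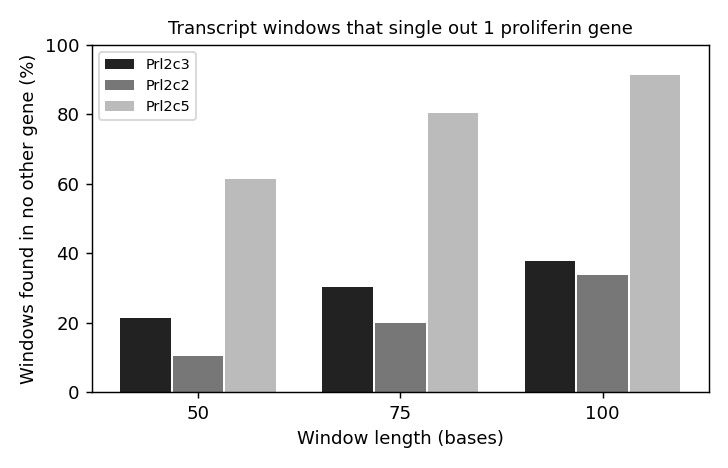
Share of transcript windows (percent, vertical axis) of 50, 75 or 100 bases (horizontal axis) that occur in no other gene of GENCODE M21, for Prl2c3, Prl2c2 and Prl2c5. At 100 bases the bars stand at 37.7% for Prl2c3 and 33.6% for Prl2c2, below 91.3% for Prl2c5.

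The promoters of Prl2c3 and Prl2c5 are shown because factors known to act on proliferin promoters are described further on. RefSeq sequences (GRCm38.p6) matched 2 of the 3 genes, all but Prl2c2. The 250 bases before the transcription start of each (Prl2c3 on the minus strand, chr13:12800080-12800329; Prl2c5 on the plus strand, chr13:13182466-13182715) match at 241 of 249 aligned bases. The starts are those of the promoter sequences, 12800079 for Prl2c3 and 13182716 for Prl2c5, so the windows reach 14 and 13 bases into the RefSeq gene spans given above. Distances below are counted from these starts. Capitals mark motif matches.
Prl2c3: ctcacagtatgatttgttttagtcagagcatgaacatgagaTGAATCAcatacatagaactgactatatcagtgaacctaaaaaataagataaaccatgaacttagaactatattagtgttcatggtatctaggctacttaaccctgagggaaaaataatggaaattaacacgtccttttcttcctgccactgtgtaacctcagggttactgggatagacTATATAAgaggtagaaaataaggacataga
Prl2c5: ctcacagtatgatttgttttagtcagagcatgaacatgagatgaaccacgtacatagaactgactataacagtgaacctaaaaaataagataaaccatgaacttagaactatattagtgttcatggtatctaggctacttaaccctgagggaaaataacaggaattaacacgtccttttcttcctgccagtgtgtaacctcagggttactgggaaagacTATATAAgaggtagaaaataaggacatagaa

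Both hold TATATAA, beginning 30 bases before the start in Prl2c3 and 31 bases before it in Prl2c5, a run of letters found in 3.04% of 32851 promoter windows of the same length. The AP-1 motif was searched in the loose form TGANTCA, with any base at N. It occurs once in Prl2c3, 209 bases before the start, and in 6.75% of all windows, while the Prl2c5 window has none. The Prl2c3 match reads TGAATCA, with A at N, so it is a match to this loose form only. No match was found in either for TATAAA (12.4% of windows), the cyclic AMP element TGACGTCA (1.55%), the palindromic glucocorticoid response element (0.0609%), the STAT motif TTCNNNGAA (7.02%) or the interferon response element (2.98%). Both strands were searched, no marked matches overlap, and a match is a description of letters only. Sites that depart from these exact letters are missed by the search. It therefore cannot show whether the known site where the glucocorticoid receptor and AP-1 factors meet lies in these windows. The loose AP-1 match in Prl2c3 was not identified as that site.

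Libraries held 18.1 to 93.8 M counts in shTlr7 and 19.2 to 51.5 M in shCtrl (M, 1e6). Tlr7 itself was near the limit of detection in both groups, with 7 counts over the 4 shTlr7 libraries and 9 counts over the 4 shCtrl libraries, so these counts are too few to check the knockdown. Of 8 epithelial markers 7 passed the filter, with 2 higher (Epcam and Cdh1) and 5 lower in shTlr7, and Krt5 was at 0. The log2 fold changes of the lower ones were -0.37 (Krt8), -0.47 (Krt18), -0.69 (Krt19), -1.19 (Krt7) and -3.50 (Krt14). Among all tested genes 29.3% were higher and 26.8% lower. The summed level of the epithelial markers was 4099 to 4381 CPM (counts per 1e6, scaled by TMM) in shTlr7 and 5577 to 6051 CPM in shCtrl. Of 10 trophoblast markers, 6 were at 0 in all libraries, including the placental lactogen genes Prl3d1 and Prl3b1 and the giant cell factor Hand1. The trophoblast sum of 9.39 to 12.3 CPM in shTlr7 and 8.16 to 8.99 CPM in shCtrl was nearly all Eomes, at a mean of 10.1 CPM in shTlr7 and 8.31 CPM in shCtrl. Summed markers of leukocytes were 0.429 to 0.799 CPM in shTlr7 and 1.12 to 1.51 CPM in shCtrl, and those of endothelium 0.399 to 0.643 CPM in shTlr7 and 0.221 to 0.377 CPM in shCtrl. Fibroblast markers summed to 43.1 to 48.0 CPM in shTlr7 and 43.9 to 45.3 CPM in shCtrl, nearly all of it Pdgfra. The part of these cell types in the proliferin values was not tested.

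Proliferin transcripts were close to absent in shTlr7 spheroids and moderately expressed in shCtrl spheroids. Summed over the 3 genes, shTlr7 replicates 1 to 4 had 1, 25, 25 and 7 counts, and shCtrl replicates 1 to 4 had 195, 563, 243 and 257 counts. Scaled for depth, the sum was 0.0536, 0.258, 0.713 and 0.235 CPM in shTlr7 replicates 1 to 4, against 10.5, 11.4, 12.4 and 11.4 CPM in shCtrl replicates 1 to 4. The groups did not overlap. The highest shTlr7 library, replicate 3, lay far below the lowest shCtrl library, replicate 1. The mean was 0.315 ± 0.281 CPM in shTlr7 and 11.4 ± 0.766 CPM in shCtrl (SD, n = 4 each), so shTlr7 stood at 2.76% of shCtrl. Without shTlr7 replicate 3 the shTlr7 mean was 0.182 CPM, or 1.6% of shCtrl. The fitted log2 fold change was -5.12 ± 0.26 (SE, edgeR), and it lay between -5.65 and -4.86 when single libraries were left out.

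The spread within groups was unequal. The 4 shCtrl libraries differed by at most 1.18-fold in the sum, with a coefficient of variation of 6.71%. The shTlr7 libraries differed by 13.3-fold, with a coefficient of variation of 89.1%, on few counts. Counting error alone gives exact 95% Poisson intervals of 0.00136 to 0.299 CPM for shTlr7 replicate 1 and 0.462 to 1.05 CPM for shTlr7 replicate 3, which do not overlap. PCR copies are not independent molecules, so these intervals cover counting error only.

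**Figure D2:**
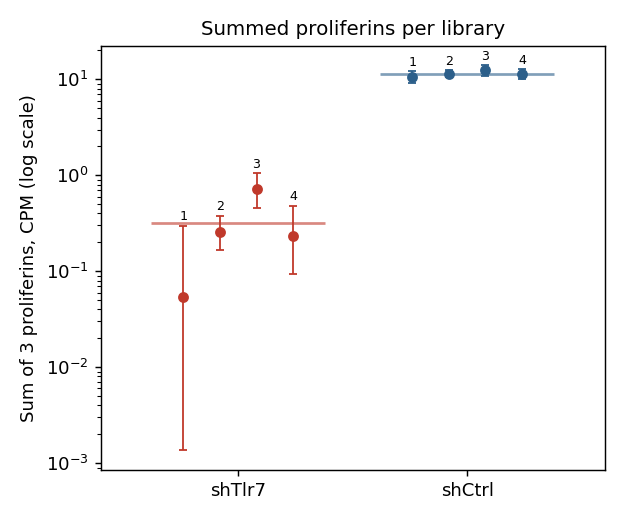
Summed proliferin level in each library (CPM, log axis) for shTlr7 and shCtrl, with points labelled by replicate number, exact 95% Poisson intervals as bars and group means as horizontal lines. The 4 shTlr7 libraries lie between 0.0536 and 0.713 CPM, below all 4 shCtrl libraries at 10.5 to 12.4 CPM.

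Prl2c3, also known as proliferin-2, carried most of the counts. It had 1, 21, 23 and 7 counts in shTlr7 replicates 1 to 4, or 0.0536, 0.217, 0.656 and 0.235 CPM, against 164, 470, 195 and 204 counts in shCtrl replicates 1 to 4, or 8.84, 9.52, 9.94 and 9.01 CPM. Replicate 3 was the highest library in both groups, and every shTlr7 library lay below every shCtrl library. The log2 fold change was -4.98 ± 0.27 (SE, edgeR), at rank 6 of 13393 tested genes when they are ordered from the largest fall.

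Prl2c2, the original proliferin, followed the same pattern at a lower level. It had 0, 3, 2 and 0 counts in shTlr7 replicates 1 to 4, and 31, 89, 47 and 49 counts in shCtrl replicates 1 to 4. In CPM these were 0, 0.0310, 0.0571 and 0 in shTlr7 and 1.67, 1.80, 2.40 and 2.17 in shCtrl. With 3 counts as the limit, the libraries at 0 could have held up to 0.161 CPM (replicate 1) or 0.101 CPM (replicate 4). The groups again did not overlap. Pooled over libraries, 5 counts in shTlr7 against 216 in shCtrl give a ratio of 0.0141 (exact 95% interval 0.00454 to 0.0335). The fitted log2 fold change of -6.00 ± 0.37 (SE, edgeR), at rank 2 of 13393, rests on these few shTlr7 counts.

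Prl2c5 was barely detected. It had 0, 1, 0 and 0 counts in shTlr7 replicates 1 to 4 and 0, 4, 1 and 4 counts in shCtrl replicates 1 to 4, so the groups overlapped at 0. The pooled ratio of shTlr7 to shCtrl was 0.0679 (exact 95% interval 0.00155 to 0.490). Prl2c5 was removed by the low-count filter, and in a fit without it its fitted log2 fold change was -3.24 ± 1.05 (SE, edgeR).

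Of the 3 members, 2 passed the filter, and they passed it through shCtrl, where they are high. The same 2 lay lower in shTlr7 with no overlap between groups. Over all tested genes 23.8% did so, while 26% lay higher without overlap and 49.8% lay apart in either direction. Since the members were chosen for this difference, nothing is read from that count.

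**Figure D3:**
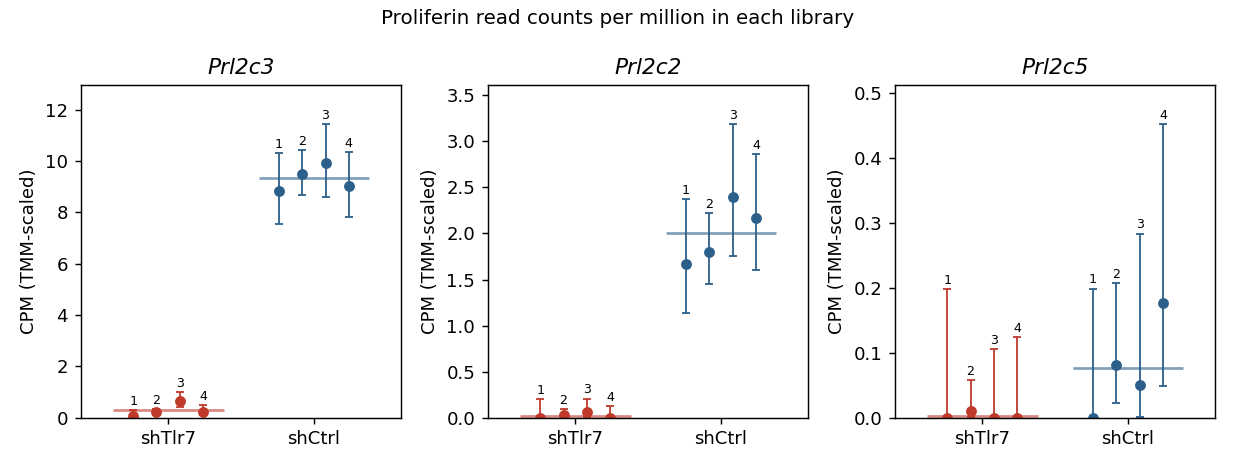
Level of Prl2c3, Prl2c2 and Prl2c5 in each library (CPM, linear axes of different height) for shTlr7 and shCtrl, with replicate numbers, exact 95% Poisson intervals as bars and group means as horizontal lines. The shTlr7 points of Prl2c3 (at most 0.656 CPM) and Prl2c2 (at most 0.0571 CPM) lie below all shCtrl points, while those of Prl2c5 overlap.

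Within the family the order was Prl2c3, Prl2c2, Prl2c5 in both groups. Per kb of transcript, shTlr7 libraries had 0.339 ± 0.300 CPM of Prl2c3, 0.0261 ± 0.0327 CPM of Prl2c2 and 0.00306 ± 0.00611 CPM of Prl2c5. In shCtrl the levels per kb were 10.9 ± 0.582 CPM of Prl2c3, 2.39 ± 0.394 CPM of Prl2c2 and 0.0914 ± 0.0881 CPM of Prl2c5 (SD, n = 4). As counted, the 3 genes were well apart in shCtrl, whereas the levels of Prl2c2 and Prl2c5 in shTlr7 did not differ beyond their spread. Full transcript length was used, although the part that can single out its gene differs among the 3. With the handling of shared reads unknown, these levels are not strictly comparable between genes. Prl2c3 held 89.7% of the pooled proliferin counts in shTlr7 (52 of 58, exact 95% interval 78.8% to 96.1%) and 82.1% in shCtrl (1033 of 1258, 79.9% to 84.2%). The Prl2c2 share was 8.62% in shTlr7 (2.86% to 19.0%) and 17.2% in shCtrl (15.1% to 19.4%). These intervals, like those of the pooled ratios, leave out the differences between libraries, so no difference in shares or lack of one is read from them. In single libraries the Prl2c3 share was 84% to 100% in shTlr7, on 1 to 25 counts, and 79.4% to 84.1% in shCtrl.

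The rest of the prolactin family was at the edge of detection in both groups. Of the other 23 family rows, 13 were at 0 in all libraries, among them prolactin itself (Prl), Prl2c1 and Prl7d1, which encodes the proliferin-related protein that opposes proliferin in vessel growth. The other 10 rows had at most 4 counts in any library, and together 20 counts in shTlr7 and 19 in shCtrl. None reached 10 counts in total, none passed the filter, and so none was tested in the filtered fit.

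The receptor to which proliferin binds rose. Igf2r, which also clears IGF-II and sorts lysosomal enzymes, had 424, 407, 367 and 410 CPM in shTlr7 replicates 1 to 4, against 289, 287, 290 and 323 CPM in shCtrl replicates 1 to 4. All 4 shTlr7 libraries lay above all shCtrl libraries, and the log2 fold change was 0.43 ± 0.05 (SE, edgeR adjusted p = 1.12e-05). M6pr, the cation-dependent receptor for the same sugar tag, fell with a log2 fold change of -0.49 ± 0.04 (edgeR adjusted p = 5.04e-07). The prolactin receptor Prlr had 7 counts over the shTlr7 libraries and 1 over the shCtrl libraries, below the filter.

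Of 16 receptors and signal transducers of the prolactin family, 15 were tested, of which 6 were higher and 5 lower in shTlr7, with a median log2 fold change of 0.06. Over all 13393 tested genes 29.3% were higher and 26.8% lower (3927 and 3590 genes, median 0.01), or 56.1% in either direction. Scaling by library size alone gave 5513 higher and 2491 lower genes and a median of 0.11, so small differences in either direction depend on the scaling. The kinase Jak2, which relays prolactin receptor signals, fell to 331 ± 13.1 CPM in shTlr7, against 516 ± 34.7 CPM in shCtrl (SD, n = 4 each; edgeR adjusted p = 2.24e-07). The feedback inhibitor Socs3 fell with a log2 fold change of -0.65 ± 0.08 (edgeR adjusted p = 1.27e-05). Stat5b had a log2 fold change of -0.21 and Stat5a one of 0.09.

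Targets of prolactin and STAT5 in mammary epithelium were in part too low to test. Of 14 targets 4 were at 0 in all libraries and 6 were tested, with 2 higher and 3 lower in shTlr7 and a median log2 fold change of -0.35. The shares over all tested genes were 29.3% higher and 26.8% lower. With 6 targets nothing is read from the count or the median. The milk protein genes Csn1s1, Csn2 and Lalba were at 0 in all libraries. The kappa-casein gene Csn3 rose to 5.31 ± 0.413 CPM in shTlr7, against 1.81 ± 0.481 CPM in shCtrl (edgeR adjusted p = 2.73e-06). Cyclin D1 (Ccnd1), the repressor Bcl6 and the differentiation inhibitor Id2 fell, with log2 fold changes of -0.75, -0.64 and -1.20.

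AP-1 factors, which are known to act on the proliferin promoter, moved in different directions. Of 12 factors 10 were tested, with 3 higher, 1 lower and 6 not called, and a median log2 fold change of 0.00. Among all tested genes 29.3% were higher and 26.8% lower, so with 10 factors nothing is read from the count. The Fos family member Fosl2 fell to 93.4 ± 6.01 CPM in shTlr7, against 129 ± 13.3 CPM in shCtrl (log2 fold change -0.47, edgeR adjusted p = 1.05e-04). The partners Atf3, Batf2 and Jdp2 rose, with log2 fold changes of 2.69 ± 0.51, 2.22 ± 0.35 and 0.48 ± 0.11 (SE, edgeR adjusted p = 0.00453, 1.17e-04 and 0.00244). Atf3 was uneven in shTlr7, at 33.1 to 157 CPM, against 14.8 to 18.8 CPM in shCtrl. Batf2 was low, with 174 counts over the shTlr7 libraries and 21 over the shCtrl libraries. Fosl1, Batf3, Jun and Junb had log2 fold changes of -0.11, 0.14, 0.11 and -0.39 and were not called by edgeR.

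The sizes of the Fos and Fosb differences rested largely on shCtrl replicate 4. Fos had 53.2, 35.0, 46.7 and 93.0 CPM in shTlr7 replicates 1 to 4, against 77.0, 64.8, 90.7 and 323 CPM in shCtrl replicates 1 to 4. The log2 fold change was -1.29 ± 0.65 (SE, edgeR adjusted p = 0.140) with all libraries and -0.46 (edgeR adjusted p = 0.350) without shCtrl replicate 4. For Fosb it was -1.99 ± 0.76 (edgeR adjusted p = 0.0655) and -0.95 (edgeR adjusted p = 0.0795) without that library. With all libraries Fosb was called lower by DESeq2 (-1.97, adjusted p = 0.00946) and limma-voom (-1.51, adjusted p = 0.0342), and Junb by limma-voom (-0.38, adjusted p = 0.0396). The Jun value was 0.50 (edgeR adjusted p = 0.0685) without shCtrl replicate 4. The summed proliferins of shCtrl replicate 4, at 11.4 CPM, lay between those of shCtrl replicates 1 and 3. Without shTlr7 replicate 4, Junb was also called lower (-0.50, edgeR adjusted p = 0.0359), which makes 2 lower factors, and without both libraries numbered 4 there were 4 lower (Fosl2, Fosb, Junb and Fos) and Jun was higher (0.59, edgeR adjusted p = 0.0387).

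The glucocorticoid receptor gene Nr3c1 rose modestly, to 126 ± 8.60 CPM in shTlr7, against 102 ± 3.06 CPM in shCtrl (log2 fold change 0.30, edgeR adjusted p = 2.08e-04). Of 13 genes of the receptor and its targets 10 were tested, with 4 higher, 2 lower and a median log2 fold change of 0.25. With 29.3% of all tested genes higher and 26.8% lower, nothing is read from the count. The metallothionein Mt2 rose by 0.56 on the log2 scale (edgeR adjusted p = 0.00410). Its groups overlapped, with shTlr7 replicate 3 at 58.4 CPM and shCtrl replicate 4 at 59.8 CPM. The kinase Sgk1 and the transcription factor Klf9 fell, with log2 fold changes of -0.41 and -0.63. Without shCtrl replicate 2 the count of higher genes was 2. Fkbp5 and Errfi1 were at 0 in their own rows and in the rows of their further copies, and the AP-1 factor Jund had 2 counts in all. Jund too has a further row under its name, and how reads that match several genes were counted is not stated. Absence of RNA from these genes is therefore not read from such counts.

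**Figure D4:**
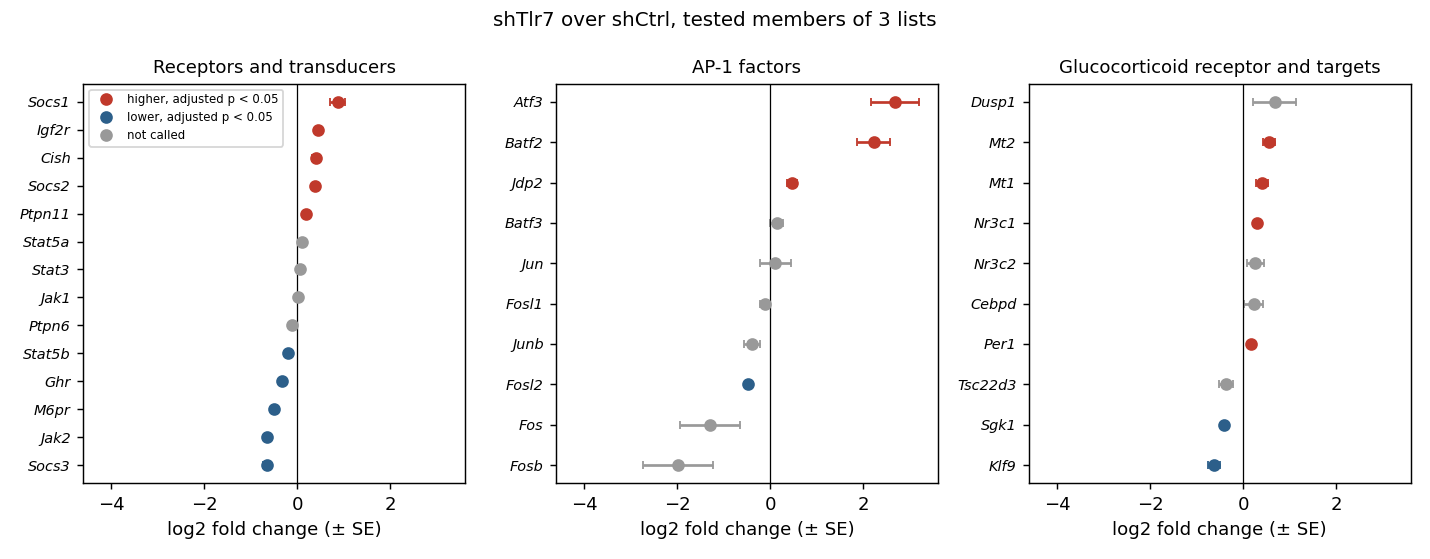
Log2 fold change of shTlr7 over shCtrl (horizontal axis, bars are SE) for tested members of 3 lists. Red points are called higher, blue points lower and grey points not called by edgeR at an adjusted p of 0.05. Atf3 (2.69) and Batf2 (2.22) reach furthest to the right of the genes drawn, and Fos (-1.29) and Fosb (-1.99) have wide bars and are grey.

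Among the genes around the proliferins, Gpr137b and Nid1 fell most. Of 16 genes that RefSeq lists as protein-coding within 1 Mb of the cluster, 11 were tested, with 5 lower, 1 higher and 5 not called, and a median log2 fold change of -0.15. Over all tested genes 26.8% were lower and 29.3% higher, and with 11 genes nothing particular to the region is read from the count. Gpr137b, which encodes a lysosomal membrane protein 166 kb from the cluster (13357620 to 13393644), had 40.1, 35.2, 36.0 and 32.7 CPM in shTlr7 replicates 1 to 4, against 63.6, 62.1, 65.8 and 67.4 CPM in shCtrl replicates 1 to 4. The groups did not overlap, and the log2 fold change was -0.85 ± 0.06 (SE, edgeR adjusted p = 6.50e-08). Nid1, the basement membrane protein nidogen-1 at 246 kb, had 0.214, 0.217, 0.143 and 0.201 CPM in shTlr7 and 1.35, 1.28, 1.22 and 1.37 CPM in shCtrl. Its log2 fold change was -2.70 ± 0.22 (edgeR adjusted p = 3.24e-07). That value rests on few counts, 36 over the shTlr7 libraries and 143 over the shCtrl libraries. Further along the same side, at 806 kb, the tubulin cofactor gene Tbce fell by 0.33 on the log2 scale. On the other side of the cluster the disulfide oxidase gene Ero1b (12565818 to 12609533) fell by 0.28. The 1 neighbour that rose was the galectin gene Lgals8 (0.17, chosen after its values were seen). Without shTlr7 replicate 4, 2 neighbours were called higher.

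**Figure D5:**
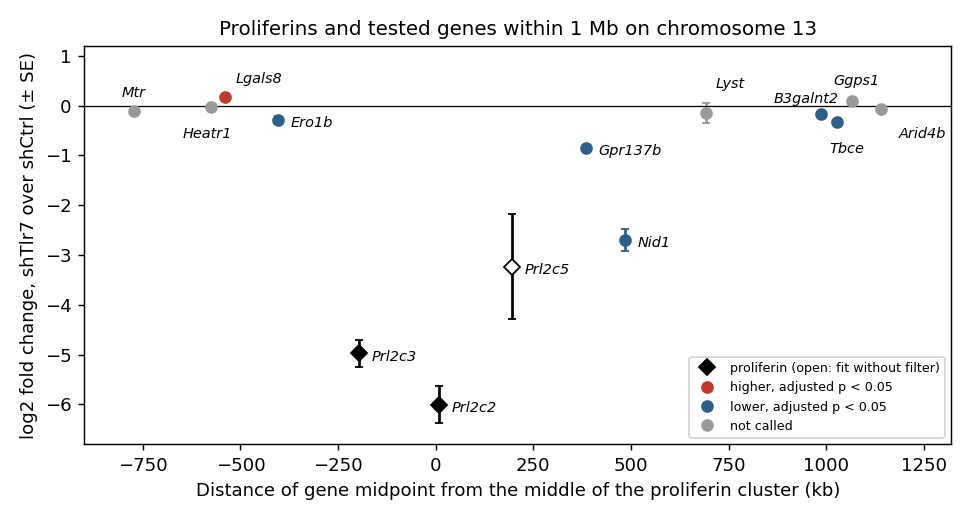
Log2 fold change of shTlr7 over shCtrl (vertical axis, bars are SE) against the distance of each gene's midpoint from the middle of the proliferin cluster (kb). Diamonds are the proliferins (Prl2c5, open, from the fit without a filter) and circles the 11 tested neighbours. Apart from Nid1 (-2.70) and Gpr137b (-0.85), the neighbours lie near 0.

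The genes whose pattern over the 8 libraries was nearest to that of the summed proliferins were Postn, Slc5a9, Asb2, Aldh3a1 and Stra6. Likeness was measured as the root mean square distance between centred log2 CPM profiles over 10533 named genes whose mean log2 CPM reached 1. The distance was 0.448 for the matrix protein periostin (Postn), 0.529 for the sodium-glucose cotransporter Slc5a9, 0.542 for the ubiquitin ligase subunit Asb2, 0.631 for the aldehyde dehydrogenase Aldh3a1 and 0.739 for the vitamin A transporter Stra6, with a median of 2.66 over all these genes. The measure is set mostly by the gap between the groups, and their log2 fold changes of -6.21, -5.27, -4.69, -4.40 and -4.65 are of similar size to that of the summed proliferins.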

How the data were processed

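RNA-seq libraries (4 shTlr7, 4 shCtrl) were grouped and numbered by their titles. The authors deposited 1 table of raw counts per gene. STAR 2.7.5, DESeq2 1.32.0 and the build GRCm38 are named, without roles, per the submitters' processing notes. Not given in the sources used here are the counting program, strand setting, annotation and handling of reads that match several genes. Differences were tested with edgeR 4.0.16 under R 4.3.3 (filterByExpr, TMM, robust quasi-likelihood fit, group as the only term, Benjamini-Hochberg adjustment over 13393 genes, threshold 0.05). The procedure was tested on simulated data with few changed genes, all changed by less than the proliferins. That simulation therefore does not cover falls as large as theirs. SE was taken as log2 fold change over the root of the F statistic. The summed proliferins were fitted as 1 row in place of the 3 genes, which had no rows with a suffix to add. CPM values were computed from the deposited counts with TMM-scaled totals.

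The value of 1 tested gene of the receptor list is not reported here, though the list's counts and median include it. The members and lists were chosen with earlier results of these data known. Named genes are the members, other family rows with at least 10 counts, all tested AP-1 factors, the 4 members of each other list with the lowest p, the 5 nearest profiles (prior count 2), and Tlr7. Others, such as Stat5a, Stat5b, Prlr and Lgals8, were chosen after their values were seen. Alternatives were other scalings, DESeq2 1.42.0, limma-voom with quality weights (limma 3.58.1), other filters, summed copies, a stricter threshold, blocking on replicate number, and omitting libraries. Every pair of libraries in a group differed by more than sampling noise (chi-square per degree of freedom 2.18 to 22.5).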

Additional observations from a re-analysis of the deposited data

Results flagged for a closer look

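In groups of 4 libraries, the gap between an extreme library and its nearest neighbour was compared with the range of the group. Of 74 groups examined, 8 stood out. Chance gives about 1 in 20 where values are independent and normally distributed. Single counts against 0 and genes from the same library do not meet those terms, so no excess is read from the 8. Most of the 8 concern shCtrl replicate 4. In that library Fos was 323 CPM, against 64.8 to 90.7 CPM in the other shCtrl libraries, Fosb was 242 CPM against 36.6 to 58.1 CPM, Jun was 491 CPM against 204 to 227 CPM, and Junb was 541 CPM against 366 to 390 CPM. Igf2r at 323 CPM (other shCtrl libraries 287 to 290 CPM) and Slc5a9 at 28.9 CPM (15.7 to 16.9 CPM) also stood out there, as did Prlr at 0.0442 CPM, which is 1 count where the others had 0. The summed proliferins of that library did not stand out. Prl2c5 in shTlr7 replicate 2, at 0.0103 CPM, is likewise 1 count against 0 in the other shTlr7 libraries.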

How the results depend on the processing

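The fitted fold changes of Prl2c3, Prl2c2 and the summed proliferins kept their sign and moved by less than the spread between replicates under every alternative run. The sum lay between -5.65 and -4.86 on the log2 scale when single libraries were left out, at -5.01 with library size only and at -5.48 with limma-voom. Prl2c5 could be fitted only without the filter on low counts. Counts of called list members moved in few cases. AP-1 factors called lower numbered 1 in the main result, 2 with DESeq2, 3 with limma-voom, 4 without both libraries numbered 4, and 1 to 2 with single libraries left out. Neighbours called higher numbered 1 in the main result, 2 with library size only, with limma-voom and without both libraries numbered 4, and 1 to 2 with single libraries left out. Glucocorticoid genes called higher numbered 4 in the main result, 2 at an adjusted p under 0.01, and 2 to 4 with single libraries left out. Without the filter, 2 other family rows were called lower, Prl3d2 (0 counts in shTlr7, 5 in shCtrl) and Prl7c1 (0 and 4 counts). The cause of these moves was not tested. With the replicate number as a block, 4 AP-1 factors were called lower, with Fos at -1.07 (edgeR adjusted p = 0.0384), Fosb at -1.64 (0.0385) and Junb at -0.39 (3.99e-06) beside Fosl2, and the proliferin sum was -5.14. Same-numbered libraries deviated together with correlations of 0.0194, 0.177, 0.209 and 0.449 for numbers 1 to 4, and not every library matched best with its own number, so the numbers were not taken as pairs. Low counts in shTlr7 limit how precisely the proliferin level there is known.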
